A study of Aspergillus nidulans with 6 samples.

Results

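Conidia are the asexual spores of the filamentous fungus *Aspergillus nidulans*, and 4 genes tied to their formation were followed here across the libraries of a *celA* deletion strain and its control. They are *flbD*, ANIA_05086, ANIA_10628 and ANIA_05015, taken by symbol from a table of 1375 listed genes. The authors had selected the listed genes on these same libraries, by an unadjusted p-value and a change of at least 2-fold. The mean levels of the 4 genes were 2.83-fold (*flbD*) to 9.49-fold (ANIA_05086) higher in *celA*Δ, from 3 libraries per strain. ANIA_05086 alone passed the test with all libraries in, where 41.1% of listed genes were called higher. In all 4 genes control library 3 lay between the other controls and *celA*Δ. It was above both other controls in 74.5% of the 642 listed genes that were higher in *celA*Δ. For ANIA_10628 and ANIA_05015 control 3 held more than 99% of all control reads.

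Conidia form on conidiophores, which *A. nidulans* raises when hyphae meet air and which are rare while the mycelium stays submerged in liquid. The fluffy genes act at the start of this programme: FluG is needed for an early signal, and FlbD, a Myb-type DNA-binding protein, is 1 of the factors that lead to activation of *brlA*, the central regulator of conidiophore development. Late genes encode proteins of the spore itself. ANIA_05086 is annotated as a conidium-specific protein, ANIA_10628 resembles C1C of SpoC1, a cluster of *A. nidulans* genes whose transcripts accumulate in conidia, and ANIA_05015 carries the name of the *Neurospora crassa* con-10 protein, which appears when that fungus conidiates.

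The control was strain SAA.111, which carries *veA1*, *biA1*, *riboB2*, *pyroA4* and *wA3* and lacks *argB* (Δ*argB*::*trpC*). In *celA*Δ, made in that strain, *argB* replaced the cellulose synthase-like gene *celA* (ANIA_08444), so *celA*Δ alone carried the *argB* marker. All alleles of SAA.111 other than these were shared. The sample labels call *celA* downregulated in this strain, while their treatment protocol describes replacement of the whole locus, and 33 to 38 *celA* reads remained in each *celA*Δ library. The *veA1* allele lets conidiation proceed without light, and *wA3* leaves conidia white. Each strain gave 3 libraries of poly(A) RNA from mycelium grown in liquid minimal medium with glucose and ammonium tartrate at 37 °C for 3 days by the labels. The study's text names a longer growth time in 1 place. A single stable transformant was obtained, so the *celA*Δ libraries are cultures of 1 strain and not separate mutants, and marker and deletion cannot be told apart.

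The libraries held 3300251 to 3706233 mapped reads in the control and 4176645 to 5205011 in *celA*Δ. The targeted gene *celA* stood at 26.6, 29.7 and 15.3 RPKM (reads scaled by gene length and library depth) in controls 1, 2 and 3, and at 3.54, 3.64 and 4.29 RPKM in the *celA*Δ libraries. The marker *argB* had 4, 4 and 2 reads in controls 1, 2 and 3, and 8150 to 15329 in *celA*Δ. Both genes placed control 3 with its label, although its *celA* rate was 0.546 times that of controls 1 and 2 (exact 95% interval from the reads, 0.438 to 0.675). Across the listed genes, which are not independent of each other, log2(RPKM + 1) of control 3 correlated with controls 1 and 2 at r = 0.839 and 0.833 and with *celA*Δ at 0.787 to 0.811. Controls 1 and 2 correlated with each other at 0.987 and with *celA*Δ at 0.487 to 0.541. Control 3 thus stood apart from its group, and results are given with and without it. The table lists only genes that the authors selected on these same libraries, by an unadjusted p-value under 0.05 and a change of at least 2-fold.

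The regulator *flbD* (ANIA_00279, chromosome VIII) had 33.1, 30.1 and 159 RPKM in controls 1, 2 and 3. In *celA*Δ 1, 2 and 3 it had 234, 183 and 212 RPKM. Controls 1 and 2 were alike, and control 3 was close under the lowest *celA*Δ library. The groups did not overlap, which by RPKM held for every listed gene. The margin was 1.15-fold between *celA*Δ 2 and control 3 (exact 95% interval from the reads, 1.03 to 1.28). Control 3 exceeded the pooled rate of controls 1 and 2 by 5.0-fold (interval 4.26 to 5.90). Such intervals cover counting error only, and PCR copies are not independent molecules.

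ANIA_05086 (chromosome III), the conidium-specific protein, had 5.33, 9.30 and 57.8 RPKM in the controls. The *celA*Δ libraries had 136, 268 and 283 RPKM. Of the 4 genes this one kept the widest gap between strains, 2.36-fold from control 3 to *celA*Δ 1 (interval 1.86 to 3.00). Its first controls rest on few reads, 9 and 14, against 95 in control 3 and 288 to 636 in *celA*Δ. Control 3 was 8.02-fold above controls 1 and 2 (interval 5.05 to 13.3).

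ANIA_10628, the SpoC1-C1C-like gene directly beside ANIA_05086, was near absent from the first controls. Its values were 0.394, 0 and 87.2 RPKM, or 2, 0 and 431 reads, in controls 1, 2 and 3. A count of 0 in control 2 allows up to 0.663 RPKM at 3 reads. The *celA*Δ libraries had 125, 335 and 365 RPKM, so *celA*Δ 1 lay nearer to control 3 than to the other *celA*Δ libraries, by difference in RPKM. The ratio of control 3 to controls 1 and 2 was 419 (interval 115 to 3468).

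ANIA_05015, the con-10 homologue, had 2.17, 1.22 and 943 RPKM in controls 1, 2 and 3, from 2, 1 and 847 reads. In *celA*Δ it had 1128, 1731 and 2529 RPKM. Controls 1 and 2 lay below the value of 3 reads, and control 3 lay 1.20-fold under *celA*Δ 1 (interval 1.10 to 1.31). The step within the control group, 548-fold (interval 187 to 2665), was far wider than any step between control 3 and *celA*Δ. In rank of RPKM among the 1375 listed genes, ANIA_05015 was 1135th and 1197th in controls 1 and 2, 26th in control 3 and 16th to 29th in *celA*Δ.

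**Figure D1:**
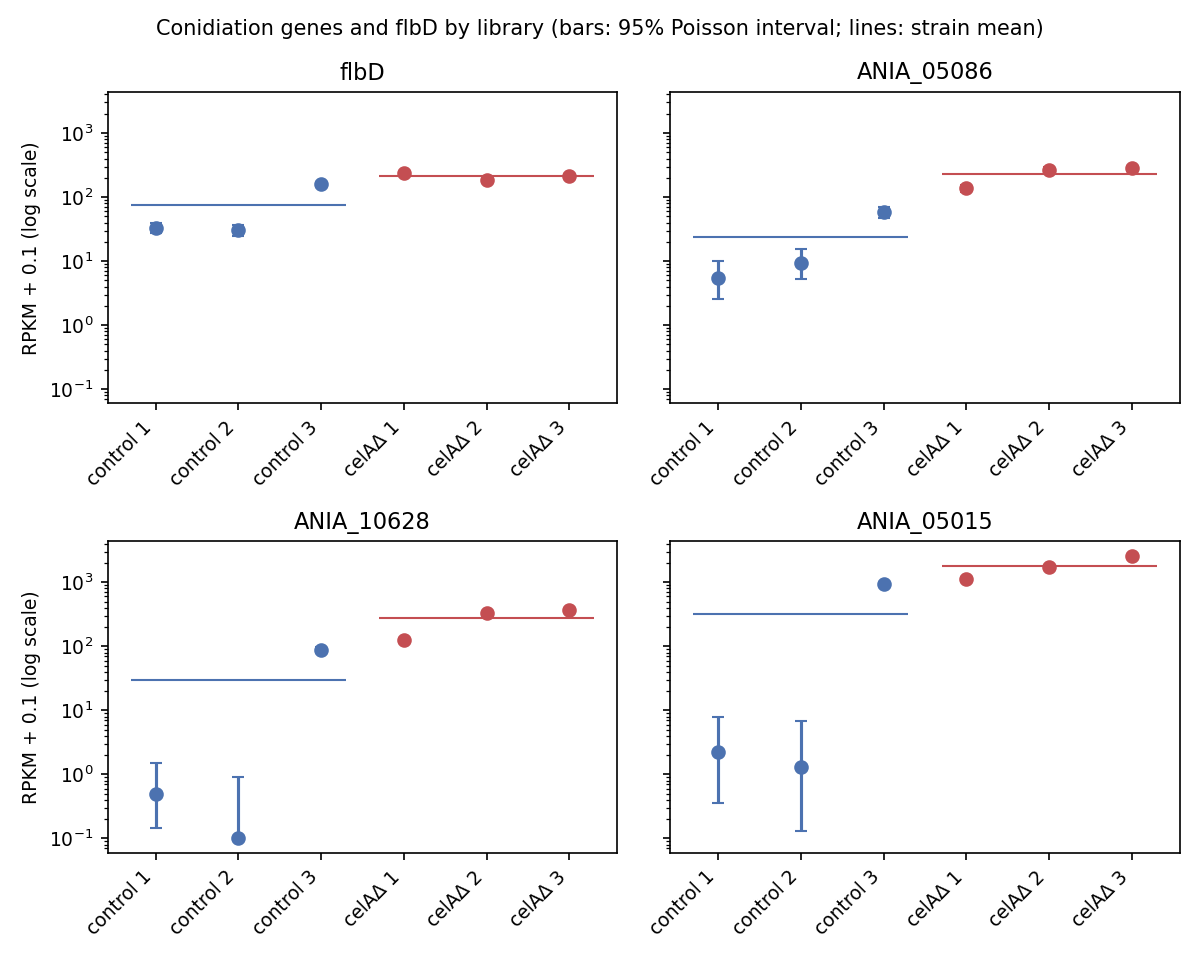
RPKM + 0.1 on a log axis for the 4 genes in each library, with control in blue and *celA*Δ in red. Bars are 95% Poisson intervals of the reads and horizontal lines the mean of each strain. Control 3 sits below all *celA*Δ libraries in each panel, from 1.15-fold (*flbD*) to 2.36-fold (ANIA_05086) under the lowest of them. By RPKM 46.7% of listed genes lie wholly above the controls in *celA*Δ and the other 53.3% wholly below. The control mean lies away from every control value.

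The order of the 4 genes, compared per length as RPKM, changed between libraries. In controls 1 and 2 *flbD* was highest, followed by ANIA_05086, ANIA_05015 and ANIA_10628, the last 2 of which cannot be ordered at 0 to 2 reads. In control 3 ANIA_05015 was highest, followed by *flbD*, ANIA_10628 and ANIA_05086. In *celA*Δ the means were 1796 ± 703 RPKM for ANIA_05015, 275 ± 131 for ANIA_10628, 229 ± 80.8 for ANIA_05086 and 210 ± 25.7 for *flbD* (SD, n = 3). ANIA_05015 lay above the others in every *celA*Δ library, while the ranges of the other 3 overlapped. The ratio of ANIA_05015 to *flbD* was 0.0654 and 0.0404 in controls 1 and 2, 5.94 in control 3 and 4.83, 9.48 and 11.9 in *celA*Δ. Control 3 fell inside the *celA*Δ range of this ratio. For ANIA_05086 over *flbD* the ratio was 0.161, 0.309 and 0.364 in controls 1, 2 and 3 and 0.582, 1.47 and 1.33 in *celA*Δ, so that control 3 lay by the other controls. Differences between the genes were not tested.

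Between strains the spread was unequal. Control means were 74.0 ± 73.4 RPKM for *flbD*, 24.1 ± 29.2 for ANIA_05086, 29.2 ± 50.2 for ANIA_10628 and 315 ± 543 for ANIA_05015 (SD, n = 3). The coefficient of variation was 99.2% to 172% in the control and 12.3% to 47.5% in *celA*Δ. Over the 642 listed genes that were higher in *celA*Δ its median was 59.7% in the control and 19.5% in *celA*Δ. Control 3 was above both other controls in 478 (74.5%) of those 642 genes. It was at least 4 times their mean in at most 206 (32.1%). That count takes in any gene at 0 RPKM in every control, such as ANIA_10506. All 4 conidiation genes, each with control reads, passed the ratio of 4. A ratio of at least 100, reached by ANIA_10628 and ANIA_05015, was found in 10 genes. Within *celA*Δ, library 1 was lowest for the 3 spore genes but highest for *flbD*. It was lowest in 54.2% and highest in 33.0% of the 642 genes.

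Whether the strains differ was asked with edgeR's quasi-likelihood test on the unique reads, with Benjamini-Hochberg adjustment over the 1375 listed genes. A gene was called at an adjusted p under 0.05 and an absolute log2 fold change (FC) over 1. ANIA_05086 rose in *celA*Δ by a log2 FC of 3.24 ± 0.88 (SE, edgeR adjusted p = 0.0117). The other 3 genes had higher means in *celA*Δ and were not called. Their log2 FC values were 1.5 ± 0.67 for *flbD* (edgeR adjusted p = 0.0595), 3.23 ± 1.89 for ANIA_10628 (0.13) and 2.51 ± 1.89 for ANIA_05015 (0.224). Hence 1 of 4 was called higher, in a table where 41.1% of genes were called higher and which holds no gene outside the authors' selection. The median log2 FC was 2.87 over the 4 genes, all listed as higher, and -1.04 over all listed genes, 53.3% of which were lower. The difference in sign follows from the listing and adds nothing to it. An exact permutation test of 3 against 3 libraries gave 0.1 for each gene, the smallest p this design allows. By RPKM, 46.7% of listed genes lay wholly above in *celA*Δ and the other 53.3% wholly below, so the lack of overlap in these 4 says nothing beyond their being listed.

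Without control 3 all 4 genes were called higher by edgeR, where 45.4% of listed genes were. The log2 FC became 2.73 ± 0.21 for *flbD* (edgeR adjusted p = 6.78e-06) and 4.97 ± 0.46 for ANIA_05086 (edgeR adjusted p = 1.99e-05). For the other 2 genes controls 1 and 2 hold 2 and 3 reads together, and ratios from the reads are more readily interpreted. Against these controls the pooled *celA*Δ rate was 1318-fold higher for ANIA_10628 (interval 365 to 10882) and 1029-fold higher for ANIA_05015 (interval 352 to 4991). Control 3 supplied 541 of the 751 control reads of *flbD*, 95 of 118 for ANIA_05086, 431 of 433 for ANIA_10628 (99.5%) and 847 of 850 for ANIA_05015 (99.6%). No other left-out library changed a call of these genes. Taking the mean of log values in place of reads, limma on log2(RPKM + 1) also called all 4 higher (43.3% of listed genes), with adjusted p-values of 0.006 to 0.0234. With edgeR's p-values adjusted over every locus of the assembly none was called (12.5% of listed genes called higher), with ANIA_05086 at an adjusted p of 0.089 and 1 of the 4 at an unadjusted p under 0.05. That adjustment takes the unlisted loci as not changed. What sets control 3 apart was not tested.

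**Figure D2:**
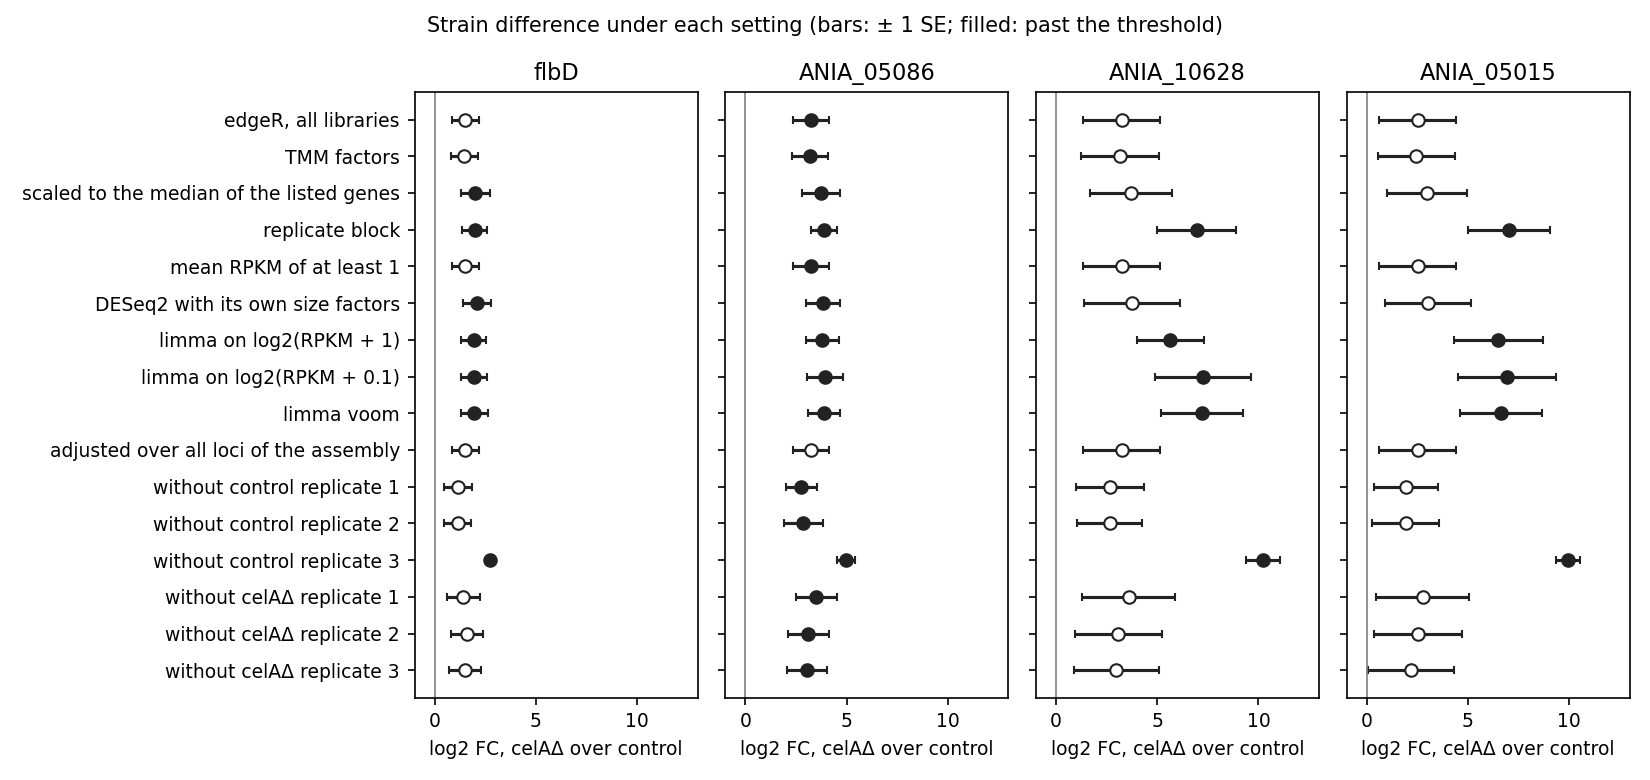
Log2 FC of *celA*Δ over control for the 4 genes under edgeR with all libraries and under each alternative, with bars of ± 1 SE and filled points where the gene passed the threshold. ANIA_05086 is filled under 15 of 16 settings, *flbD* under 7, and ANIA_10628 and ANIA_05015 under 5 each, among them the fit without control 3.

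Of a list of 36 other loci of conidiation, from upstream signalling to the spore wall, 4 are among the listed genes. Of all 10453 protein-coding genes of the assembly 13.1% are listed, and no test of this count was made. The other loci of the 36, including *brlA*, *abaA* and *wetA*, the remaining fluffy genes and the spore wall gene *rodA*, are not listed. They were not analysed here, nor were the 6 marker loci each of conidiophores and of sexual development, none of which is listed. In mycelium a larger share of sporing cells and more transcript per cell cannot be told apart.

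Among the 4 listed loci, edgeR called 2 higher and 1 lower, where 41.1% of all listed genes were called higher and 52.5% lower. *fluG*, which acts upstream of *flbD*, fell in *celA*Δ. It had 57.3, 54.7 and 106 RPKM in the controls and 29.9, 18.6 and 17.9 in *celA*Δ, and its log2 FC was -1.71 ± 0.40 (SE, edgeR adjusted p = 0.00766). Here control 3 lay on the far side of its group, 1.88-fold above controls 1 and 2 (interval 1.72 to 2.06), away from *celA*Δ.

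The membrane protein gene *tmpA*, linked to conidiation signalling in *A. nidulans*, had 8.31, 9.33 and 10.1 RPKM in the controls and 18.9, 38.7 and 35.7 in *celA*Δ. Its log2 FC was 1.75 ± 0.35 (edgeR adjusted p = 0.00485), and *celA*Δ 1 was lowest of its group, as for the spore genes. The methyltransferase-like regulator *laeA*, a partner of velvet proteins in development and secondary metabolism, had 112, 126 and 147 RPKM in the controls and 371, 294 and 298 in *celA*Δ (log2 FC 1.33 ± 0.31, edgeR adjusted p = 0.00745). In both genes control 3 stayed near the other controls, at 1.14 and 1.24 times their mean, against 5.02 times for *flbD*.

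ANIA_06401 was entered in the list under its spore wall and pigment loci, while the deposited annotation calls it a conserved hypothetical protein. It had 10.5, 9.29 and 271 RPKM in the controls and 599, 397 and 487 in *celA*Δ. The gene was not called (log2 FC 2.35 ± 1.23, edgeR adjusted p = 0.0969) until control 3 was left out (5.63 ± 0.30, edgeR adjusted p = 1.78e-06). Then 3 of the 4 listed loci were called higher and *fluG* lower, with 45.4% of all listed genes called higher and 50.7% lower.

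Trehalose, a disaccharide stored in conidia, gave a second list, every listed gene whose annotation names it. All 4 had higher means in *celA*Δ and 2 were called by edgeR, where 41.1% of listed genes were called higher. Without control 3 all 4 were called, against 45.4% of listed genes. ANIA_10533 had 136, 127 and 743 RPKM in the controls and 1863, 1244 and 1265 in *celA*Δ (log2 FC 2.12 ± 0.76, edgeR adjusted p = 0.0298; it was not called in 5 of 6 leave-one-out fits, with adjusted p up to 0.0851). ANIA_10506, a putative heat shock trehalose synthase, had 0 reads in every control and 9, 33 and 28 in *celA*Δ, at least 5.88-fold higher against a floor of 3 reads per library. The trehalose-phosphate synthase ANIA_05523 went from 48.8, 58.0 and 257 RPKM in the controls to 329, 344 and 362 in *celA*Δ, and the putative trehalose synthase ANIA_05021 from 18.2, 18.6 and 134 to 153, 200 and 199. Neither of the last 2 was called (edgeR adjusted p = 0.0574 and 0.0727). Control 3 was 4.82 to 7.27 times the mean of the other controls in the 3 genes with control reads.

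**Figure D3:**
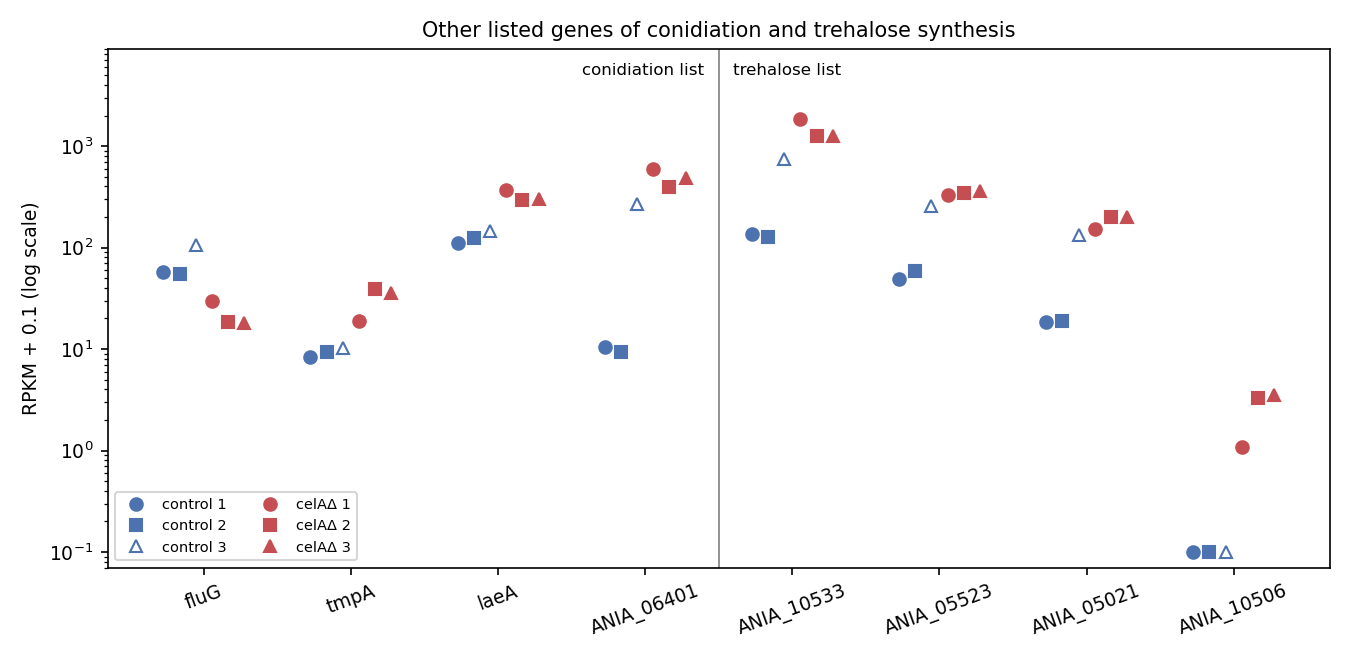
RPKM + 0.1 on a log axis for the listed genes of the conidiation list (left) and the trehalose list (right), with 1 symbol per library, controls in blue with control 3 open, and *celA*Δ in red. Control 3 stays with the other controls for *tmpA* and *laeA*, lies above them and away from *celA*Δ for *fluG*, and lies next to *celA*Δ for ANIA_06401 and the trehalose genes other than ANIA_10506.

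The place of the genes in the genome was read from the gene order of assembly ASM1142v1. ANIA_05086 and ANIA_10628 are the 10th and 11th of 1185 protein-coding genes on chromosome III, close to its end in the assembly, and ANIA_05015 is the 91st. Within 10 genes of either side of the adjacent pair lie 19 other genes, 9 of them before it. Of these, 6 are listed and all 6 are higher in *celA*Δ (31.6%), where 13.1% of the 10453 protein-coding genes of the assembly are listed and 6.13% are listed as higher. No test of this share was made.

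Of these 6 neighbours, edgeR called 3 higher (41.1% of listed genes), and 6 without control 3 (45.4%). The calcium P-type ATPase gene ANIA_05088 had 2.77, 0.979 and 48.5 RPKM in the controls and 111, 186 and 184 in *celA*Δ (log2 FC 3.20 ± 1.31, edgeR adjusted p = 0.0456; not called in 5 of 6 leave-one-out fits, adjusted p up to 0.0879). ANIA_05089, a conserved hypothetical protein, had 0, 2.96 and 6.76 RPKM in the controls and 23.5, 84.0 and 86.0 in *celA*Δ (log2 FC 4.30 ± 0.94, edgeR adjusted p = 0.00614). Few reads stood behind ANIA_10630, with 0, 0 and 2 in the controls and 14, 17 and 26 in *celA*Δ, a ratio of 21.6 (interval 5.70 to 182). The pattern of a low pair of controls and a raised control 3 recurred in ANIA_10629 and ANIA_05083 on the other side, where control 3 was 38.7 and 30.1 times the mean of controls 1 and 2. ANIA_05079, the farthest, had 78.6, 89.5 and 411 RPKM in the controls and 493, 567 and 622 in *celA*Δ. The last 3 were not called (edgeR adjusted p = 0.0686, 0.0906 and 0.0543).

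**Figure D4:**
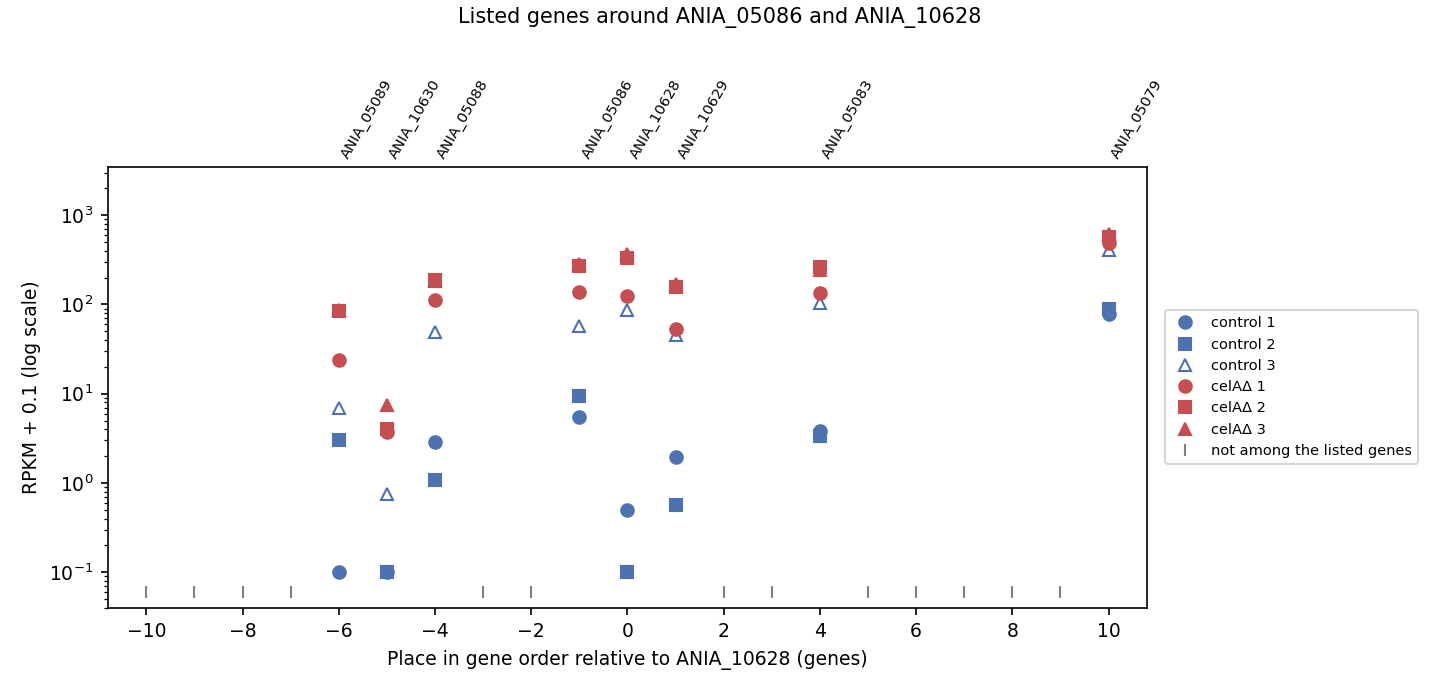
RPKM + 0.1 on a log axis of the listed genes against their place in gene order relative to ANIA_10628, with controls in blue, control 3 open, and *celA*Δ in red. Grey ticks mark genes that are not listed. In all 8 listed genes of the window control 3 lies between the other controls and *celA*Δ, for ANIA_10630 on 2 reads. Control 3 was above both other controls in 74.5% of the 642 listed genes higher in *celA*Δ. All of those 642 lie wholly above the controls.

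The surroundings of the other genes were mixed. Of the protein-coding genes of the assembly, 13.1% are listed and 6.13% are listed as higher. Of the listed genes, edgeR called 41.1% higher and 52.5% lower. Among 20 neighbours of *flbD*, 3 are listed, 2 of them as higher (10%). In the edgeR fit ANIA_00287 and ANIA_00286 were called higher (log2 FC 1.46 and 1.28) and ANIA_00272 lower (-1.04). The last was called in 7 of 16 settings. Of 20 neighbours of ANIA_05015, 3 are listed, 2 of them as higher (10%), and neither window was tested against the shares above. ANIA_05021, the trehalose synthase given above, and ANIA_05016 (log2 FC 0.99 ± 0.39) were higher in mean without being called, and ANIA_05007, a class II aldolase-domain protein, was called lower (log2 FC -1.24).

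The listed genes with the pattern most like each conidiation gene were found by Pearson's r of log2(RPKM + 1) over the 6 libraries, whose points fall into a low pair and 4 higher libraries for many genes. These values are a description. *flbD* was most like ANIA_06401 (r = 0.9997), the conserved hypothetical protein of the conidiation list. ANIA_05086 was most like the aquaporin ANIA_02822 (r = 0.9994), at 2.00, 3.14 and 14.4 RPKM in the controls and 25.7, 46.8 and 43.5 in *celA*Δ. ANIA_10628 was most like ANIA_00635, a conserved hypothetical protein (r = 0.9997), with its neighbour ANIA_05083 also among its 5 closest (r = 0.9991). ANIA_05015 was most like the opsin gene *nopA* (r = 0.9994), which stood at 472, 438 and 2293 RPKM in the controls and 2581, 2929 and 3021 in *celA*Δ, a far smaller step than in ANIA_05015. Between the 4 conidiation genes r ran from 0.946 for *flbD* and ANIA_05086 to 0.994 for ANIA_10628 and ANIA_05015.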

How the data were processed

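Reads were trimmed by the authors and aligned in CLC Genomics Workbench against transcripts of strain FGSC A4. The deposited table holds unique gene reads (raw counts) and RPKM per library, gene length and the authors' mean RPKM and unadjusted p-value for each gene, and keeps only genes selected by that p-value and a 2-fold change. The deposited p-values were used only to check that selection. Mapped totals were derived from reads, length and RPKM (98.5% to 98.8% of genes within 1 read). A supplementary sheet of the study gives the totals of control 2 and *celA*Δ 2 the other way round, and the table was followed. All reads of the 4 genes were unique.

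The main test was edgeR 4.0.16 (R 4.3.3) on the counts, 3 against 3 libraries, library sizes set to the mapped totals and left without further scaling, prior count 0.125, two-sided; SE was log2 FC, unsigned, divided by the root of the F statistic. It was tested on simulated data, which held no library apart from its group and so do not bear on control 3. Alternatives used limma 3.58.1 on log2(RPKM + 1), log2(RPKM + 0.1) and voom, DESeq2 1.42.0, TMM, scaling to the median, a mean RPKM of at least 1, the replicate number as a block, adjustment over all loci, and each library left out. The counts for the lists without control 3 were chosen after seeing the data. Intervals are exact, at 95%. Python 3.11.15, numpy 2.4.6, pandas 2.3.3, scipy 1.17.1 and matplotlib 3.10.9 made tables and plots.

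The 4 genes and the lists were chosen with earlier results of these data known. Named genes are the 4 genes, *celA*, *argB*, listed loci of the conidiation and trehalose lists, listed genes within 10 places of each gene in assembly ASM1142v1, and, from the 5 most alike listed genes per gene, the closest, with 1 neighbour. Of the listed identifiers 1372 matched the assembly. Its coordinates served only to put genes in order, since the reads were mapped to another annotation. The labels name separate biological replicates.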

Additional observations from a re-analysis of the deposited data

How the results depend on the processing

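The direction of the 4 conidiation genes was the same in all 60 of their values under alternatives, and 42 kept their side of the threshold. By RPKM every listed gene lay wholly above or wholly below in *celA*Δ, so the shared direction says little beyond their being listed. *flbD* passed it with scaling to the median (log2 FC 2.01), DESeq2 (2.09), limma on log2(RPKM + 1) (1.92), log2(RPKM + 0.1) (1.94) and voom (1.94). ANIA_10628 passed it with those 3 limma fits (5.65, 7.25 and 7.21), as did ANIA_05015 (6.50, 6.91 and 6.65). The fits on log2(RPKM + 1) and log2(RPKM + 0.1) average log values with equal weight for each control, and voom averages them with weights. ANIA_05086 stayed at 3.24 but lost its call when edgeR's p-values were adjusted over all loci (adjusted p = 0.089), and the count of listed genes called fell from 1287 to 525. Leaving out each library gave log2 FC of 1.13 to 2.73 for *flbD*, 2.77 to 4.97 for ANIA_05086, 2.65 to 10.2 for ANIA_10628 and 1.93 to 9.93 for ANIA_05015, and 992 to 1321 genes called; the highest value of each came without control 3. Median scaling and DESeq2 moved the median log2 FC of listed genes by 0.57 and 0.68, and the share of calls that were higher from 43.9% to 60.5% and 63.9%.

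Same-numbered replicates showed no sign of pairing, which 3 libraries per strain cannot exclude. Their deviations from strain means correlated at 0.192, -0.189 and 0.161, and 2 of 6 libraries correlated best with their own number. With the number as a block *flbD* (1.97), ANIA_10628 (6.94) and ANIA_05015 (7.04) passed the threshold, and 1258 genes were called.

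Depth limits ANIA_10628 and ANIA_05015 in controls 1 and 2, where 0 to 2 reads leave wide intervals on the fold. All p-values rest on genes selected on the same libraries and are too small for that reason.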
